A study of Mus musculus with 4 samples.

Results

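Microglia, the resident macrophages of the brain, were followed through 10 marker genes: the adaptors Tyrobp and Fcer1g, the receptors Trem2, Axl, Csf1r, Cx3cr1 and P2ry12, and Aif1, Mpeg1 and Cst7. They were picked by gene name and all 10 were found in every table, among 22376 gene IDs in the 4 tables together. Gene expression had been measured on Visium arrays, on which mRNA from a tissue section is captured by small printed discs and counted as unique molecular identifiers (UMIs), 1 per captured molecule. All 8 mice were males of 3 to 4 months, carried Cre at the dopamine transporter gene on both alleles and were single housed with a running wheel. The labels write this genotype as DAT (iCre/iCre), and the study's methods call the line DAT IREScre. GqCNO mice (n = 3) were injected bilaterally in the midbrain with a conditional AAV for the excitatory designer receptor hM3Dq(Gq)-mCherry and drank clozapine-N-oxide (CNO), the ligand of that receptor, at 300 mg/L with 2% sucrose for 1 week. GqVeh mice (n = 3) had the same virus and 2% sucrose alone. CNO alone mice (n = 2) had no injection and drank CNO with 2% sucrose, so no group lacked this Cre allele and the injection was never given apart from the receptor. Receptor expression was limited to cells with dopamine transporter-driven Cre, so it was directed to dopamine neurons and not to microglia.

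Microglia survey the tissue through receptors such as P2ry12, which senses nucleotides released from injured cells, and Cx3cr1, the receptor of the neuronal chemokine fractalkine (Cx3cl1). They depend on Csf1r, the receptor of the growth factors Csf1 and Il34, for survival. In disease and ageing many microglia lower P2ry12 and Cx3cr1 and raise a set of genes that includes Cst7, Axl and the lipid receptor Trem2, which signals through Tyrobp. P2ry12, Cx3cr1 and Csf1r are set here as homeostatic genes beside Cst7, Trem2 and Axl as activated genes. Several of the 10 genes are also used by other myeloid cells, and Tyrobp and Fcer1g by natural killer cells.

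In the mouse assembly GRCm38.p6, Tyrobp lies at chr7:30413782-30417582, Fcer1g at chr1:171229572-171234349, Trem2 at chr17:48346401-48352276 and Axl at chr7:25756500-25788924. Cx3cr1 lies at chr9:120048683-120068296 and P2ry12 at chr3:59216271-59262985. Aif1 lies at chr17:35170986-35176083, Mpeg1 at chr19:12460770-12465285 and Cst7 at chr2:150570415-150578944. RefSeq promoter sequences of the same build were at hand for 8 of the 10 genes, and the 250 bases before the start are shown for the activated genes Cst7 and Trem2, the homeostatic gene P2ry12 and the effector Mpeg1. Capitals mark the core of ETS factor sites (GGAAGT) and the AP-1 site (TGANTCA) on either strand, and each sequence runs 5′ to 3′ on the strand of its gene.
Cst7, chr2:150570165-150570414, plus strand: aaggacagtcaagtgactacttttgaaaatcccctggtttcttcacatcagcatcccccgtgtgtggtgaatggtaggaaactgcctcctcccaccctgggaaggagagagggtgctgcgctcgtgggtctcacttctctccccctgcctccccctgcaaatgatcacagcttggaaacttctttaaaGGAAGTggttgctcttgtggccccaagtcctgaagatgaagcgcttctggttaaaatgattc
Trem2, chr17:48346151-48346400, plus strand: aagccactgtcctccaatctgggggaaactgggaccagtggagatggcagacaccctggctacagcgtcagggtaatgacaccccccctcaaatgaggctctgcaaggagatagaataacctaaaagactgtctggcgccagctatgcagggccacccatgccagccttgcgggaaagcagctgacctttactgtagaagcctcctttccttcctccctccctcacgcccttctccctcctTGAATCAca
P2ry12, chr3:59262986-59263235, minus strand: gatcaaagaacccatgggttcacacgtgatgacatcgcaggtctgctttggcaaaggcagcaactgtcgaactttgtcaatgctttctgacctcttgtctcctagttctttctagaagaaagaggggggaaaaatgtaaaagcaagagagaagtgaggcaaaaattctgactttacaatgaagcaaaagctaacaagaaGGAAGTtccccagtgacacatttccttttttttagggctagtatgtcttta
Mpeg1, chr19:12460520-12460769, plus strand: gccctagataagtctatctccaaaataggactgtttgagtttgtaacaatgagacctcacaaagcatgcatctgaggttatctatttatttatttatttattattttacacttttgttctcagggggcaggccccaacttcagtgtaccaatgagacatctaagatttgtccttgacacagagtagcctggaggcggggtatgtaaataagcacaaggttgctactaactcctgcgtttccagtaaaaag
Of the 8 promoters, 2 held GGAAGT (Cst7, 62 bases before its start, and P2ry12, 51 bases before its start), as did 19.7% of all 32851 RefSeq promoters in windows of the same length. TGANTCA was held by 1 of the 8 (Trem2) and 6.75% of all, and the E-box CACGTG by 1 (P2ry12) and 6.02% of all. None held the longer PU.1 site GAGGAAGT, which contains GGAAGT and was in 2.44% of all. A match shows the letters alone and no binding.

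Midbrain arrays gave 3 regions, the substantia nigra (SN), the ventral tegmental area (VTA) and thalamus, and striatal arrays gave the caudoputamen (CP), the lateral septal complex (LSX) and white matter, with 1 section of each kind per mouse and no thalamus for GqCNO mouse 801. A column held 1 to 7 discs and 7779 to 71906 UMIs in the SN, 2 to 49 discs and 25808 to 350222 UMIs in the VTA, and 8 to 39 discs in the thalamus. It held 357 to 560 discs in the CP, 6 to 93 in the LSX and 21 to 72 in white matter. Levels below are UMIs per 10000 UMIs of the column, and 95% intervals are exact and cover counting error only. In the study's methods, discs high in Aif1, P2ry12, Gfap or Aldh1l1 were left out and SN and VTA discs had to contain a dopamine neuron soma. SN and VTA discs also had to express at least 2 of Slc6a3, Slc18a2 and Th above a set threshold. All levels are thus those of the discs kept, and Aif1 and P2ry12 helped to decide which these were. Because a disc holds several cells, a change in the number of microglia, up or down, cannot be told apart from a change in RNA per microglial cell.

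In the VTA, Tyrobp, Csf1r and Mpeg1 were higher in GqCNO mice than in all 5 control mice together. They were 3 of the 8 genes whose mean over the control mice alone reached the minimum level for a test, and none of the 8 was lower. Of all 6312 genes tested in the VTA, 1.2% were higher by the same rule (limma with Benjamini-Hochberg adjustment, adjusted p under 0.05), and of the 5920 that also reached the minimum in control mice alone, 0.811% were. The median log2 difference was 1.19 over the 8 genes and -0.08 over these 5920. Cst7 reached the minimum only through the GqCNO mice, so it had to differ, and it is described by its levels and left out of these counts. P2ry12 was under the minimum. The smallest column, from GqVeh mouse 785 with 2 discs, had no UMI for 7 of the 10 genes, which allows up to 1.16 UMIs per 10000 for each.

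The adaptor Tyrobp, which carries the signal of Trem2 and other receptors, had a level of 5.28 (47 UMIs) in GqCNO mouse 781, 3.18 (53 UMIs) in mouse 801 and 3.73 (15 UMIs) in mouse 804. It stood at 1.72, 0 and 1.41 in GqVeh mice 784, 785 and 802 and at 0.114 and 0.274 in CNO alone mice C1W7 and C2W2. Every GqCNO mouse was above every control mouse. The log2 difference from all controls was 2.16 ± 0.36 (SE, adjusted p = 0.00154). A two-sided exact permutation test over the 56 ways to choose 3 of 8 mice gave p = 0.0357, and 0.0179 is the smallest p it allows. The other adaptor, Fcer1g, the common gamma chain of Fc receptors, was at 4.72, 1.08 and 1.49 in the GqCNO mice, at 1.18, 1.16 and 0.703 in the GqVeh mice and at 0.228 and 0.0686 in the CNO alone mice. Mouse 801 lay below 2 GqVeh mice, so the groups overlapped. Its difference was 1.25 ± 0.32 (SE, adjusted p = 0.0514), just outside the threshold.

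Among the receptors, the growth factor receptor Csf1r (chr18:61105572-61131139) was the one called. Its level was 2.92, 1.80 and 2.49 in GqCNO mice 781, 801 and 804, 0.981, 0.387 and 1.29 in GqVeh mice 784, 785 and 802 and 0.20 and 0.309 in the CNO alone mice. The GqCNO mice were above all controls, and the GqVeh mice were above both CNO alone mice. The difference from all controls was 1.44 ± 0.27 (SE, adjusted p = 0.00532). Trem2, which binds lipids and apolipoproteins, was at 2.02, 1.32 and 1.24 in the GqCNO mice, 0.785, 0 and 1.52 in the GqVeh mice and 0.314 and 0.103 in the CNO alone mice. GqVeh mouse 802 lay above 2 of the GqCNO mice, and the difference of 1.13 ± 0.34 did not pass (adjusted p = 0.136). Axl, a receptor tyrosine kinase for the uptake of dying cells, was at 0.899, 1.2 and 0.746 in the GqCNO mice and between 0 and 0.589 in the controls. These did not overlap, but the difference of 0.90 ± 0.29 did not pass (adjusted p = 0.173; exact permutation p = 0.0179, the smallest possible).

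The fractalkine receptor Cx3cr1 spread as widely among GqCNO mice as over all mice: 2.70 (24 UMIs) in mouse 781, 1.08 (18 UMIs) in mouse 801 and 0 in mouse 804, where a count of 0 allows up to 0.746. Controls lay between 0 and 1.17, within the GqCNO range. Its difference was 0.58 ± 0.43 (SE, adjusted p = 0.666). P2ry12 was at 0.112 (1 UMI), 0.0599 (1 UMI) and 0.497 (2 UMIs) in the GqCNO mice and between 0 and 0.245 in the controls, 4 UMIs against 11 in all. It was under the filter and was not tested, and a change in either direction was not detectable at this depth.

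Of the remaining genes, Mpeg1, the pore-forming perforin-2 of macrophages, was at 2.25, 1.32 and 2.24 in GqCNO mice 781, 801 and 804, at 0.687, 0 and 0.937 in the GqVeh mice and at 0.143 and 0 in the CNO alone mice. The groups did not overlap, and the difference from all controls was 1.63 ± 0.32 (SE, adjusted p = 0.00617). Cst7, which encodes the protease inhibitor cystatin F, was at 3.48 (31 UMIs), 0.659 (11 UMIs) and 0.746 (3 UMIs) in the GqCNO mice. It was at 0.343 (7 UMIs), 0 and 0.234 (2 UMIs) in the GqVeh mice and without a UMI in both CNO alone mice, where a count of 0 allows up to 0.0857 and 0.103. Every GqCNO mouse was above every control, but mouse 781 gave 31 of the 45 GqCNO UMIs. With a mean of 0.116 in controls Cst7 passed the filter only through the GqCNO mice, so its test is not read as a result. Aif1, which encodes the calcium-binding protein Iba1, was at 2.36, 1.02 and 0.995 in the GqCNO mice and between 0.103 and 0.820 in the controls, without overlap. Its difference of 1.04 ± 0.28 did not pass (adjusted p = 0.0783), and discs high in it had been left out.

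**Figure D1:**
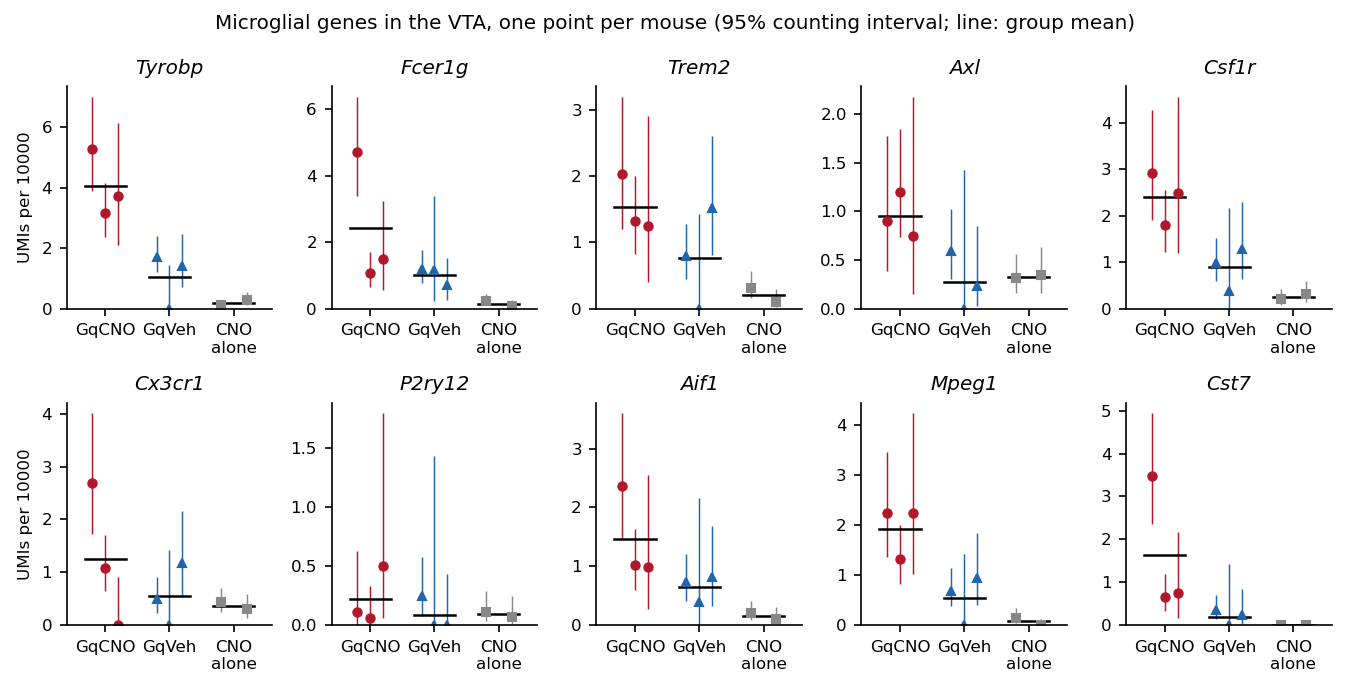
Level of each of the 10 genes in the VTA (y axis, UMIs per 10000) by group (x axis), with 1 point per mouse, the 95% exact counting interval as a bar and the group mean as a line. Tyrobp, Csf1r, Mpeg1, Cst7, Aif1 and Axl had every GqCNO mouse above every control mouse, and the vertical scale differs between genes.

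Every GqCNO mouse lay above every control for 5 of the 8 genes that passed in control mice alone, beside 2.42% of the 5920 such genes and 3.36% of all genes tested in the VTA. GqCNO mouse 781 had the highest level of 8 of the 10 genes. The 2 midbrain arrays carried 4 mice each, and mouse 781 was the only GqCNO mouse on its array. The called genes did not overlap, so GqCNO mice had to be higher within each array. On the array of mice 801 and 804 the log2 differences were 1.70 for Tyrobp, 1.12 for Csf1r and 1.40 for Mpeg1. On that of mouse 781 they were 2.72, 1.81 and 1.92. Without mouse 781, 1 of the 8 genes was called (Tyrobp), and without mouse 804 again 1 (Tyrobp). With no filter on low values, which raised the genes tested from 6312 to 15708, none of the 10 was called by limma, while 6 of the 8 were called by edgeR on the recovered UMIs under the main filter. Of all 6312 genes, edgeR called 119 higher and 22 lower.

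The 2 control groups were also taken one by one, which shows how far the difference depended on the control, although both comparisons use the same GqCNO mice. Against GqVeh mice, which had the virus without CNO, Tyrobp was the only one of the 8 genes higher in the VTA, beside 0.317% of all genes. Its difference was 1.80 ± 0.40 (SE, adjusted p = 0.0465), a call lost under most other settings, among them without any one GqCNO mouse and without GqVeh mouse 785 (0 called in each), and with the minimum level set on control mice alone. The median difference from GqVeh over the 8 genes was 0.92. Against CNO alone mice, 5 of the 8 genes were higher, beside 0.998% of all genes: Tyrobp by 2.70 ± 0.45, Mpeg1 by 2.08 ± 0.40, Fcer1g by 1.98 ± 0.40, Csf1r by 1.93 ± 0.34 and Aif1 by 1.52 ± 0.36 (SE). Their adjusted p ran from 0.00146 for Tyrobp to 0.0302 for Aif1. With Cst7 counted in, 6 of 9 genes were called, and 2 of 9 with either CNO alone mouse left out or with mouse 781 left out.

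Between the control groups, 8 of the 9 genes were at higher mean log2 levels in GqVeh than in CNO alone mice in the VTA, with a median difference of 0.74. None passed in limma, beside 0.0792% of all genes. At an unadjusted p under 0.05, 54 of all 6312 genes were higher and 75 lower. Of the 9 genes 3 had such a p, and edgeR called 4, with its count over all genes not given here. Fcer1g had the largest of these differences, 1.22 ± 0.40 (SE, adjusted p = 1.0). The summed level of the 10 genes was 12.7 to 26.7 in GqCNO, 1.94 to 8.31 in GqVeh and 1.58 to 2.06 in CNO alone mice. GqVeh mice 784 and 802 lay between the other groups, and mouse 785 lay within the range of the CNO alone mice. The CNO alone columns also held the most discs, 37 and 49, against 4 to 17 in GqCNO and 2 to 20 in GqVeh mice, and the part of this in the result was not tested.

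**Figure D2:**
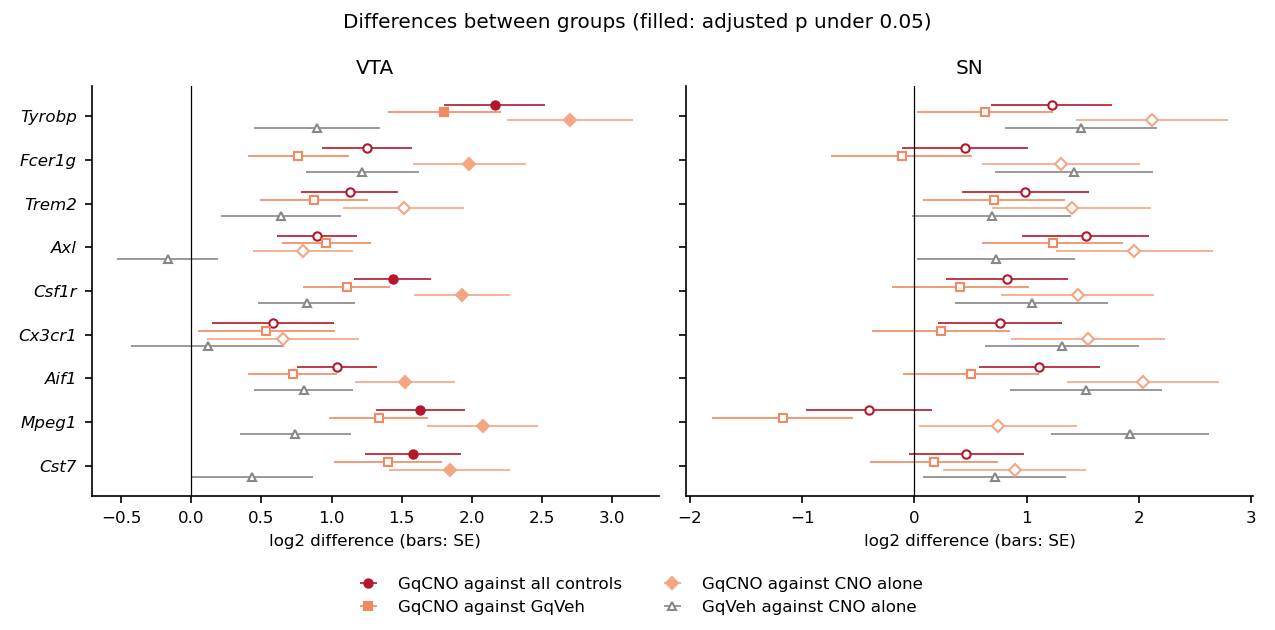
Log2 difference (x axis, bars show SE) of the 9 tested genes (y axis) for 4 comparisons in the VTA and the SN, with filled symbols where the adjusted p was under 0.05. Calls were made only in the VTA, 4 against all controls, 1 against GqVeh and 6 against CNO alone, of which Cst7, which passed the filter only through the GqCNO mice, is 1 in the first and the last.

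Of the homeostatic genes, 1 of 2 tested was higher in the VTA of GqCNO mice (Csf1r). Of the activated genes, neither Trem2 nor Axl passed, and Cst7 passed the filter only through the GqCNO mice. The sums over each set are given as a description. The summed level of P2ry12, Cx3cr1 and Csf1r was 5.73, 2.94 and 2.98 in GqCNO mice 781, 801 and 804, 1.72, 0.387 and 2.46 in GqVeh mice and 0.742 and 0.686 in CNO alone mice. The summed level of Cst7, Trem2 and Axl was 6.40, 3.18 and 2.74 in GqCNO mice, 1.72, 0 and 1.99 in GqVeh mice and 0.628 and 0.446 in CNO alone mice. In both sums the GqCNO mice were above all controls, and in both mouse 781 was highest. Csf1r gave 66 of the 112 homeostatic UMIs of GqCNO mice, and P2ry12 gave 4.

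The activated share, the UMIs of the 3 activated genes over those of all 6 set the sums against each other. It was 52.8% (95% interval 42.9 to 62.5), 52.0% (41.8 to 62.0) and 47.8% (26.8 to 69.4) in GqCNO mice 781, 801 and 804. It was 50% and 44.7% in GqVeh mice 784 and 802 and 45.8% and 39.4% in the CNO alone mice, while mouse 785 had 1 UMI of these genes in all. The GqCNO mice overlapped the controls, and the interval of each control mouse covered the values of all 3 GqCNO mice. Pooled, the share was 51.9% (45.3 to 58.5) in GqCNO mice and 45.8% (38.6 to 53.2) in controls. The order of the pooled shares rested on Cst7: without it the share was 40.4% in GqCNO mice and 43.1% in controls. In the CP, with 689 to 1373 UMIs of these 6 genes per mouse, the share was 29.5% (27.8 to 31.2) in GqCNO mice and 28.1% (26.8 to 29.4) in controls. VTA and CP columns came from separate arrays, and their shares are not compared.

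**Figure D3:**
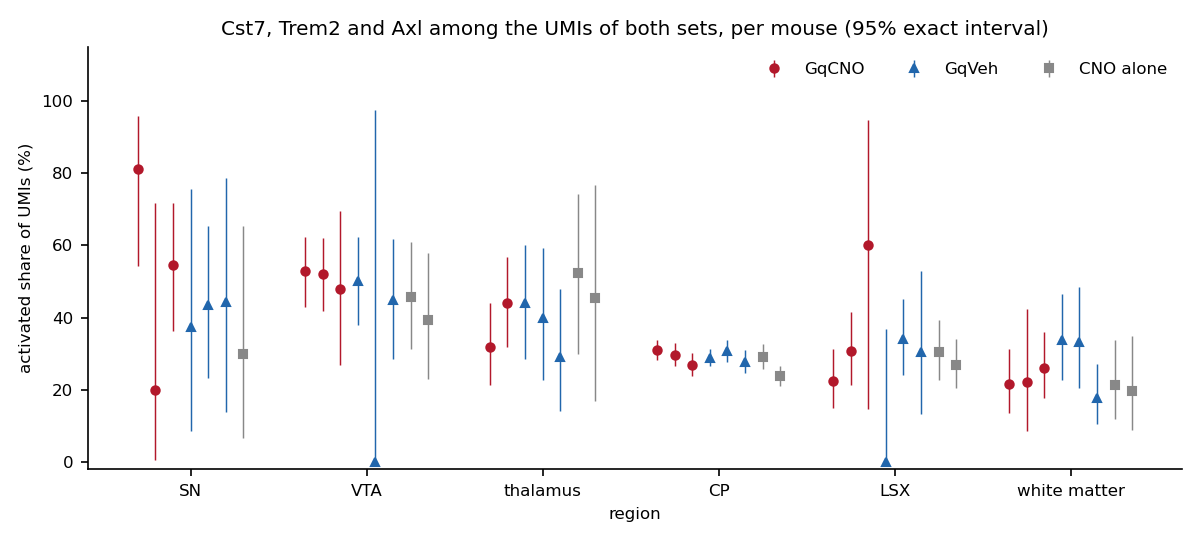
Share of Cst7, Trem2 and Axl among the UMIs of these genes and P2ry12, Cx3cr1 and Csf1r (y axis, percent), per region (x axis) and mouse, with 95% exact intervals. In the VTA the GqCNO mice lay between 47.8% and 52.8%, and the CP, with the most UMIs, had the narrowest intervals.

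In the SN, none of the 9 tested genes was called against all controls, beside 0.373% of all 6174 genes. In limma 3 had an unadjusted p under 0.05 (Axl, Tyrobp and Aif1), and edgeR called 1 (Tyrobp). Of all 6174 genes, 212 were higher and 271 lower at that unadjusted p, and edgeR called 61 higher and 15 lower. The median difference was 0.83, beside -0.08 over all genes. Tyrobp was at 6.12 (9 UMIs), 0 and 3.94 (23 UMIs) in GqCNO mice 781, 801 and 804, at 2.58, 0.175 and 1.41 in GqVeh mice and at 0.139 and 0 in CNO alone mice. Mouse 801 gave 1 disc and 7779 UMIs, so its 0 allows up to 3.86, and the groups overlapped. Without that mouse the difference was 2.37 with an adjusted p of 0.00219, in place of 1.22 ± 0.54 (SE, adjusted p = 0.554). Mouse 781 also gave 1 disc, with 14717 UMIs. Over 21 other settings the difference ran from 0.51 to 3.19, and Tyrobp was called in 2 of them. The exact permutation test over all mice gave p = 0.232 for Tyrobp.

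Axl was the one gene of the 9 with all GqCNO mice above all controls in the SN, beside 2.35% of all genes: 3.40 (5 UMIs), 1.29 (1 UMI) and 1.03 (6 UMIs) against 0 to 0.859. Its difference was 1.52 ± 0.56 (SE, adjusted p = 0.357). Mpeg1 had the only difference below 0, -0.41 ± 0.56, with 17 UMIs in mouse 804 and none in mice 781 and 801. Cst7 had 6 UMIs in GqCNO mice and 2 in controls, and P2ry12 none in GqCNO mice and 3 in controls. The 10 genes together gave 136 UMIs in the 3 GqCNO mice, 101 of them from mouse 804.

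The median differences in the SN were larger against CNO alone than against GqVeh. No gene was called against GqVeh (0.0648% of all genes; median 0.41, 1 gene with an unadjusted p under 0.05, 0 called by edgeR). None was called against CNO alone (0.389% of all; median 1.46, 6 with an unadjusted p under 0.05, 4 called by edgeR). None was called for GqVeh against CNO alone (0.0648% of all; median 1.31, 4 with an unadjusted p under 0.05, 0 called by edgeR). Of all 6174 genes, 175, 145 and 46 were higher at an unadjusted p under 0.05 in the same order, and 201, 229 and 44 lower. Counts of all genes by edgeR are not given for these comparisons. CNO alone mouse C2W2 had no UMI of any of the 10 genes among 37841 in the SN, which allows up to 0.793 UMIs per 10000 for each.

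In the thalamus, the third midbrain region, only Csf1r, Cx3cr1 and Axl passed the filter and none was called, beside 0% of all genes (0 at an unadjusted p under 0.05, 0 by edgeR). Csf1r was at 0.697 and 0.405 in GqCNO mice 781 and 804 and between 0.124 and 0.597 in the controls, so the groups overlapped. Its difference was 0.32 ± 0.20, and those of Axl and Cx3cr1 were 0.18 ± 0.19 and 0.06 ± 0.20 (SE). The difference between the VTA and thalamus responses was tested within mice: it was 1.28 ± 0.34 for Csf1r (unadjusted p = 0.000867 in limma, adjusted p = 0.154), and none of the 3 genes passed, beside 0.113% of all genes. The SN response was not shown to differ from the VTA response for any of the 9 genes, beside 0% of all genes. The largest difference there was that of Mpeg1, -2.04 ± 0.58 (SE, adjusted p = 0.651). None of 3 passed for SN minus thalamus, beside 0% of all genes. Counts of genes with an unadjusted p under 0.05 were 1, 1 and 1 in these 3 comparisons. Over all genes they were 539 of 5316, 322 of 5341 and 263 of 5072 in the same order.

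In control mice no difference between midbrain regions passed for the tested genes. Within the 5 control mice, 0 of 8 genes passed between SN and VTA, beside 0% of all genes (0 at an unadjusted p under 0.05). For VTA minus thalamus, 0 of 3 were higher, beside 11.9% of all genes, and for SN minus thalamus 0 of 3, beside 4.76% (0 at an unadjusted p under 0.05 in both). Csf1r had 0.34 ± 0.18 in the former and 0.43 ± 0.27 in the latter (SE).

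No gene was called in the striatal regions. Of these, the CP receives axons of the dopamine neurons, and the study used the LSX and white matter as control regions. In the CP 0 of 9 were higher in GqCNO mice (0% of all genes; 1 at an unadjusted p under 0.05, 0 by edgeR), in the LSX 0 of 9 (0% of all; 0 and 0) and in white matter 0 of 9 (0.0367% of all; 0 and 0). At that unadjusted p, 161 of all 10813 genes were higher in the CP and 239 lower. The CP columns were the deepest, so its levels are the most precise. Csf1r was at 0.623, 0.637 and 0.633 in GqCNO mice 781, 801 and 804 and between 0.518 and 0.618 in the controls. Together with Axl, at 0.174 to 0.193 against 0.121 to 0.170, it was one of 2 genes of the 9 without overlap, beside 1.43% of all genes. The differences were 0.16 ± 0.09 for Csf1r and 0.16 ± 0.10 for Axl (SE, adjusted p = 0.999 for both).

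Tyrobp, with the largest difference in the VTA, had -0.02 ± 0.15 in the CP, -0.43 ± 0.29 in white matter and 0.58 ± 0.37 in the LSX (SE). P2ry12, too low for a test in the midbrain, was at 0.366, 0.288 and 0.337 in GqCNO mice and between 0.266 and 0.329 in controls in the CP, a difference of 0.15 ± 0.11. Mpeg1 had 0.28 ± 0.12 in the CP, the one gene there with an unadjusted p under 0.05 (0.0394 in limma; adjusted p = 0.999). Cst7 had 9 UMIs in GqCNO mice and 6 in controls over all CP columns, and was under the filter in the thalamus and in every striatal region. Of the differences between responses in the LSX, white matter and CP, none of 9 genes passed: 0 for LSX minus CP (0% of all genes), 0 for white matter minus CP (0%) and 0 for white matter minus LSX (0%), with 0, 1 and 0 at an unadjusted p under 0.05 in limma. Over all genes 432 of 10262, 422 of 10093 and 481 of 10134 had such a p, in the same order.

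**Figure D4:**
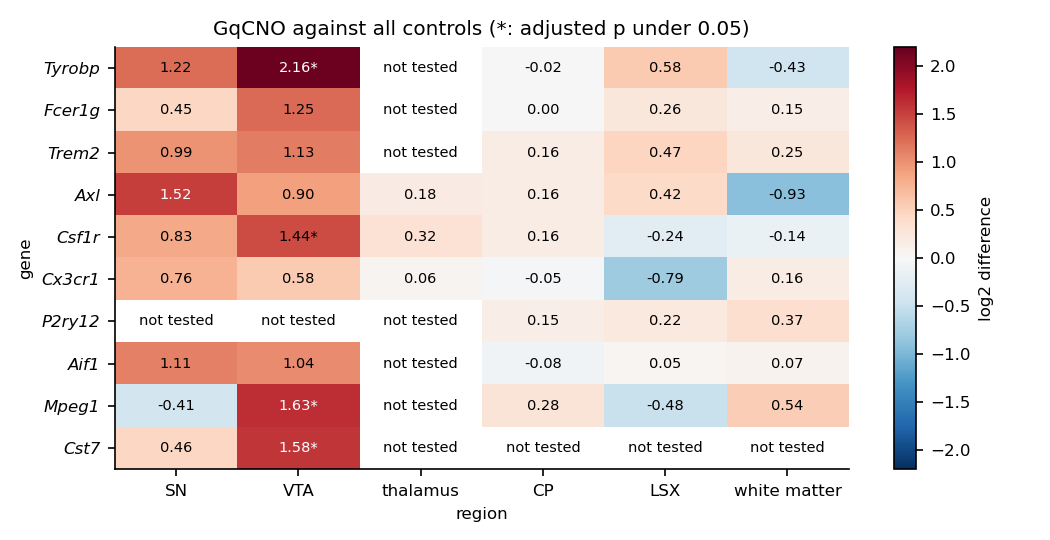
Log2 difference of GqCNO mice from all controls for each gene (rows) and region (columns), with an asterisk where the adjusted p was under 0.05. Tyrobp, Csf1r and Mpeg1 carry the asterisk in the VTA, as does Cst7, which passed the filter there only through the GqCNO mice, and genes under the filter are marked as not tested.

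Among striatal regions of the 5 control mice, the genes were higher in white matter than in the LSX. In white matter 7 of 9 were higher than in the LSX, beside 8.39% of all genes: Tyrobp by 1.92 ± 0.27, Aif1 by 1.64 ± 0.28, Trem2 by 1.46 ± 0.42, Fcer1g by 1.44 ± 0.30, Csf1r by 1.43 ± 0.26, P2ry12 by 1.0 ± 0.23 and Mpeg1 by 0.95 ± 0.30 (SE). Axl and Cx3cr1 did not pass, with 0.71 ± 0.33 and 0.88 ± 0.33. Without CNO alone mouse C1W7, 3 of 8 passed. Against the CP, 3 of 9 were higher in white matter, beside 13.8% of all genes: Tyrobp by 0.96 ± 0.14, Fcer1g by 0.96 ± 0.15 and Csf1r by 0.80 ± 0.16 (SE). The levels of Tyrobp were 0.984, 1.0, 0.709, 1.23 and 0.675 in white matter of mice 784, 785, 802, C1W7 and C2W2 and 0.504, 0.511, 0.385, 0.469 and 0.340 in their CP. All 5 mice had more in white matter.

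In the LSX 5 of 9 genes were lower than in the CP, beside 9.05% of all genes that were lower. Their log2 differences were -1.22 ± 0.35 for Trem2, -1.16 ± 0.29 for Aif1, -0.96 ± 0.28 for Tyrobp, -0.65 ± 0.17 for P2ry12 and -0.62 ± 0.19 for Csf1r (SE). This count fell to 1 without GqVeh mouse 785, GqVeh mouse 802 or CNO alone mouse C1W7, to 0 without CNO alone mouse C2W2 and to 2 with the array pair in the fit. The white matter and LSX columns of GqVeh mouse 784 held 129 and 11 UMIs of the 10 genes.

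**Figure D5:**
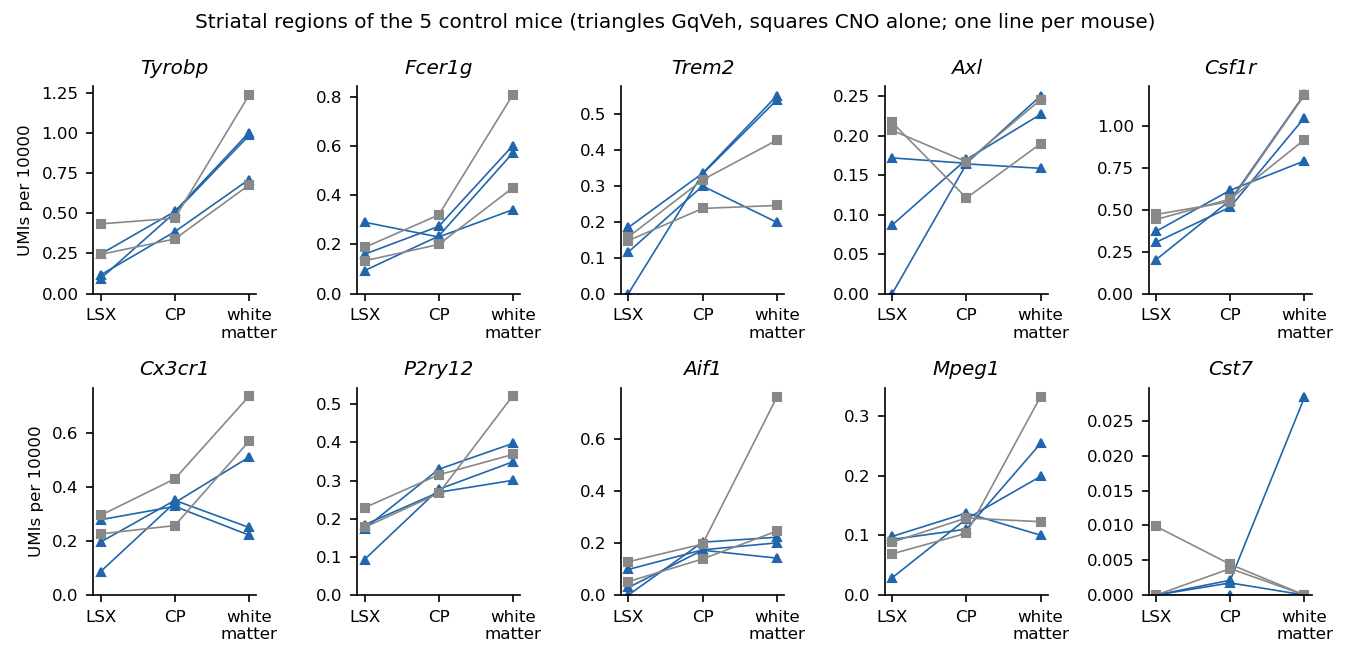
Level of each gene (y axis, UMIs per 10000) in the LSX, CP and white matter (x axis) of the 5 control mice, with 1 line per mouse. Tyrobp, Fcer1g and Csf1r were higher in white matter than in the CP.

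Other microglial genes were counted by list in the VTA, over the genes that passed the filter in control mice alone and beside 0.811% of all such genes. Of 18 further homeostatic genes 6 were tested and 2 were higher, among them Ctss (cathepsin S) by 2.28 ± 0.41 (SE). Between the control groups, GqVeh mice had more Ctss than mice given CNO without virus, by 1.73 ± 0.51 in the VTA (unadjusted p = 0.00257, adjusted p = 1.0 in limma) and by 2.45 ± 0.52 in the SN (adjusted p = 0.00367), and the latter passed. Tmem119, a marker of resident microglia, had 0.76 ± 0.27 (adjusted p = 0.25) and the lectin gene Siglech 0.74 ± 0.30 (adjusted p = 0.354). Of 27 further activated genes, 26 of which were in the tables, 13 were tested and 4 were higher, among them Ctsz by 1.85 ± 0.37, Ctsd by 1.44 ± 0.24 and Apoe by 0.96 ± 0.20 (SE). Cd52, which passed only through the GqCNO mice, had 52 UMIs in these and 20 in controls. Of 24 genes shared by microglia and other myeloid cells 10 were tested and 4 were higher. The complement genes C1qa, C1qc and C1qb were higher by 3.06 ± 0.48, 2.29 ± 0.40 and 2.27 ± 0.34, and the lysosomal membrane gene Laptm5 by 1.19 ± 0.28 (SE). None of these genes was lower, and the median differences of the lists were 0.63, 0.87 and 0.91, beside -0.08. In the SN, counted in the same way, 0 of 7, 2 of 13 and 2 of 11 genes were higher, beside 0.383% of all such genes: Apoe and Ctsd in the activated list and C1qa and C1qb in the myeloid list. There GqVeh mice also exceeded CNO alone mice in C1qa by 2.13 ± 0.53 and C1qb by 1.92 ± 0.53 (SE). For Ctsd this was 1.17 ± 0.41 and for Apoe 0.68 ± 0.25 (SE), and none of these passed. Against GqVeh mice alone, 0 of 6, 0 of 13 and 2 of 10 genes were higher in the VTA, beside 0.253% of all such genes. In the SN it was 0 of 7, 0 of 13 and 0 of 11, beside 0.0729%.

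Of the 8 ligands of the receptors, 4 were tested in the VTA and 1 was higher: Apoe, a ligand of Trem2 that is also on the activated list, whose mean level was 59.9 with an SD of 7.98 in the 3 GqCNO mice and 31.0 with an SD of 6.82 in the 5 controls. Clu, another ligand of Trem2, had 0.84 ± 0.25 (adjusted p = 0.122) and Gas6, the ligand of Axl, 0.51 ± 0.29 (adjusted p = 0.552). Cx3cl1, the neuronal ligand of Cx3cr1, had -0.26 ± 0.26 (adjusted p = 0.766). The Csf1r ligands were under the filter: Csf1 averaged 0.215 ± 0.142 (SD, n = 3) under GqCNO and 0.18 ± 0.117 (SD, n = 5) without it, from 5 and 22 UMIs. Il34 averaged 0.0974 ± 0.0908 and 0.117 ± 0.0773 in the same order, from 4 and 15 UMIs. Of 18 genes of signalling below Tyrobp and Fcer1g, 17 were in the tables and 1 (Sirpa) passed the filter in control mice alone. It was not higher in limma, adjusted or at an unadjusted p under 0.05. The phosphatase gene Ptpn6, which passed the filter only through the GqCNO mice, had 13 UMIs in these and 8 in controls, and the inhibitory receptor gene Sirpa had a difference of 0.24 ± 0.26 (adjusted p = 0.803).

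The genes whose levels over the 8 VTA mice lay nearest to the mean profile of the 9 tested genes were H2-Q7, Gbp6, Gbp3, Cyba, Ctsd and Laptm5. Their root mean square distances were 0.20, 0.20, 0.23, 0.23, 0.23 and 0.24 on the centred log2 scale, beside a median of 0.87 over the other genes. A gene at the same level in all 8 mice would lie at 0.78. The profile includes Cst7 and is itself high in GqCNO mice, so genes near it had to be high there as well. H2-Q7 encodes a class I histocompatibility molecule, Gbp6 and Gbp3 interferon-induced GTPases and Cyba a subunit of the phagocyte oxidase. H2-Q7 and the Gbp genes have close paralogs, so reads may be split between copies. This likeness rests on 8 mice and describes levels alone.

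Markers of other cells were summed in the same mice. The summed level of 10 T cell markers in the VTA was 1.32 to 14.2 in GqCNO mice and 0 to 2.23 in controls, and 158 of the 179 GqCNO UMIs were of the chemokine gene Ccl5, higher by 2.55 ± 0.50 (SE, adjusted p = 0.00617). The defining T cell gene Cd3e had 1 UMI in GqCNO mice and none in controls. The summed level of 8 monocyte and neutrophil markers, of which 7 were in the tables, was 0.779 to 2.49 in GqCNO mice and 0 to 0.147 in controls. Of its 35 GqCNO UMIs 18 were of Ly6c2, which had none in the 5 control mice and so passed the filter only through the GqCNO mice, and the chemokine receptor gene Ccr2 had 1. Ly6c2 has a close paralog, Ly6c1, with which reads may be shared. The 8 markers of perivascular macrophages summed to 0 to 0.337 in GqCNO mice and 0.0343 to 1.16 in controls, with Mrc1 at 0 in all GqCNO mice. In the SN, Mrc1 was found in GqCNO mice and passed the filter only through them, so its test is not read. In the SN the T cell markers summed to 0 to 16.8 in GqCNO mice and 0 to 2.58 in controls, and the monocyte and neutrophil markers to 0 to 2.06 and 0 to 0.175. What part these cells had in the differences of the 10 genes was not tested.

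Of 10 astrocyte markers, all tested in the VTA, 2 were higher, beside 1.2% of all genes: Gfap by 2.41 ± 0.36 and the water channel gene Aqp4 by 1.42 ± 0.29 (SE). Gja1, a gap junction gene, had 0.79 ± 0.34 (adjusted p = 0.377) and the calcium-binding protein gene S100b -0.63 ± 0.21 (adjusted p = 0.216), and neither passed. Between the control groups, GqVeh mice had more Gfap than CNO alone mice, by 1.80 ± 0.44 in the VTA (adjusted p = 0.419). In the SN this difference was 2.80 ± 0.53 and passed (adjusted p = 0.00042). For Aqp4 it was -0.19 ± 0.36 in the VTA (SE). Discs high in Gfap had been left out. Of other cells, 0 of 8 oligodendrocyte markers were higher in the VTA of GqCNO mice. The same held for 0 of the 3 endothelial markers that passed the filter in control mice alone. Unadjusted p was under 0.05 for 0 of both. Blood cell markers, which are haemoglobin genes and Alas2, summed to 1.91 to 47.7 in GqCNO mice and 0.775 to 9.81 in controls in the VTA, with 0 of 4 called (0 at an unadjusted p under 0.05). In the SN they summed to 7.47 to 32.1 and 0.202 to 18.5, with 3 of 4 higher, beside 0.373% of all genes. Against GqVeh mice 3 of 4 were higher there (0.0648% of all genes), and against CNO alone mice 0 of 4 (0.389%). GqVeh mice were lower than CNO alone mice in these markers, with a median of -1.78 and 0 of 4 called. Of the dopamine neuron markers 5 of 7 tested were lower in the VTA, beside 0.317% of all genes that were lower, among them Slc6a3, the dopamine transporter gene, with -2.12 ± 0.23, and Ddc, an enzyme gene of dopamine synthesis, with -1.44 ± 0.21 (SE). Slc6a3, Slc18a2 and Th had served to choose the discs, so their levels are not free of that choice. A column with less RNA of one kind has a larger share of every other kind, and the part of this in the levels was not tested.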

How the data were processed

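Visium sections of 8 mice were measured on 4 arrays of 4 mice each, as 2 pairs of a midbrain and a striatal array. The authors aligned reads to mm10 and counted UMIs with Space Ranger (version not given in the sources used here), chose the discs of each region in Loupe Browser, and deposited a signal per gene, the normalized average over the discs of 1 region of 1 mouse. Arrays were normalized separately, so regions were compared only within a tissue.

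Each of the 47 columns was rescaled to a total of 10000. All low values, 100% in every column, were whole multiples of 1 step (tolerance 0.05 of a step), which gave back UMIs and depth: 7779 to 71906 UMIs in the SN, 25808 to 350222 in the VTA and 4300381 to 7977003 in the CP. A count of 0 allows 3 counts of the total. Groups came from the column names and labels. Python 3.11.15 with pandas 2.3.3, numpy 2.4.6 and scipy 1.17.1 prepared the values.

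Group differences were tested with limma 3.58.1 (variance trend, 3 group means) in R 4.3.3, on log2 of the level plus 0.5 in midbrain or 0.05 in striatal regions. These differences understate the change of low genes. The filter kept genes whose average level over mice reached 0.25 in midbrain regions and 0.05 in striatal ones, p was adjusted over all of them by Benjamini-Hochberg, and every adjusted p in the text is from these fits. Control mice were weighted equally against GqCNO. Regions were compared by limma on within-mouse differences. Each mouse gave 1 section of a tissue, so the mouse was the unit of every test. The variance trend draws the spread of each gene toward that of genes at like levels. In the SN it left markers with nearly equal SEs, 0.56 for both Axl and Trem2 against all controls. The p-values there reflect little of a gene's own spread between mice. The scripts were tested on simulated data. The edgeR 4.0.16 quasi-likelihood test was run on the recovered UMIs, where it called 7 of 9 markers (Cst7 included) in the VTA and 119 of 6312 genes higher. Other alternatives were the deposited scale, TMM, other constants and filters, the array pair, no trend, the methods' t-test and leaving out mice. A filter on the control mice alone was added after seeing the data, since a gene that passes only through GqCNO mice had to differ. Such genes stay in the fits and are left out of counts of marker and microglial genes in the VTA and SN.

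The 10 genes and all gene lists were chosen with earlier results of these data known. Named beside the 10 genes were up to 4 tested genes of each list with the smallest p in the VTA and the 6 genes nearest to the markers' mean profile. One gene that this rule names is not reported here. Csf1, Il34, Cd3e, Ccr2 and Mrc1 were named as ligands or defining markers. Image positions and scale factors were not used. Promoters and gene positions are from RefSeq, GRCm38.p6.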

Additional observations from a re-analysis of the deposited data

Results flagged for a closer look

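The 5 control mice were examined gene by gene in each region for a mouse set apart from the rest, and 8 of 60 sets held one. Chance gives about 1 in 20 where values vary freely, which does not hold for sets of nearly all zeros, and 4 of the 8 are Cst7 sets with 1 or 2 UMIs in 1 mouse and none in the others. CNO alone mouse C1W7 gave 4 of the 8: the highest Aif1 in white matter (0.760 UMIs per 10000, 16 UMIs, next 0.246), the highest Axl in the thalamus (0.350, 7 UMIs, next 0.269), the lowest Axl in the CP (0.121, 55 UMIs, next 0.164) and the only Cst7 among controls in the LSX (0.00985, 1 UMI). GqVeh mouse 784 gave 2 in the SN, Fcer1g at 3.44 (4 UMIs, next 0.807) and Cst7 at 1.72 (2 UMIs, none in the other controls). GqVeh mouse 802 gave the only Cst7 UMI of controls in the thalamus (0.0498) and in white matter (0.0284). Fcer1g in the SN also rests on few UMIs.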

How the results depend on the processing

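Counts here are over all 9 genes tested, Cst7 included. Of 608 counts of called genes under other settings, 558 were equal to the reported count or within 1.5 times of it, and none of 956 log2 differences of single genes reversed a call (41 changed sign with neither value called). In the VTA against all controls (4 called), the filter on control mice alone, which removes Cst7, left 3, a smaller added constant left 1, no filter 0, the methods' t-test after Benjamini-Hochberg 0 and edgeR 7, and leaving out 1 mouse gave 1 to 6. The VTA call against GqVeh (1) fell to 0 with deposited values, TMM, a smaller constant, no filter, a stricter filter, the array pair as replicate block, no variance trend, the t-test after Benjamini-Hochberg and, both chosen after seeing the data, the filter on control mice alone and without the 2 mice of lowest depth (785 and 804). It rose to 2 with edgeR and 4 with the t-test at its own threshold, and was 0 to 1 without 1 mouse. Against CNO alone in the VTA (6), counts were 3 with a smaller constant, 0 with no filter, 0 with the adjusted t-test and 2 to 7 without 1 mouse. GqVeh against CNO alone in the VTA (0) had 4 with edgeR, 1 with the unadjusted t-test, 1 without 785 and 804 and 0 to 1 without 1 mouse. In the SN, 0 against all controls became 1 with edgeR and the unadjusted t-test and 0 to 1 without 1 mouse, and 0 against CNO alone became 4 with edgeR, 2 with the unadjusted t-test, 2 without mice 801, 781 and 784 of lowest depth and 0 to 1 without 1 mouse. The unadjusted t-test gave 1 in place of 0 in 4 comparisons: thalamus (GqVeh against CNO alone), CP (GqCNO against all controls and against CNO alone) and white matter (GqCNO against GqVeh). LSX minus CP (5) had 1 with a smaller constant, 2 with the replicate block and 0 to 7 without 1 mouse, and white matter minus LSX (7) had 3 to 7. The replicate block moved no other count by over 1.5 times. Without the filter more genes enter the adjustment, and the cause of the other changes was not tested. The SN median over all genes went from -0.08 to -0.21 with TMM and -0.25 with the smaller constant. Depth limits the SN and GqVeh mouse 785: a count of 0 allows up to 3.86 UMIs per 10000 in the smallest SN column and 1.16 in the VTA of that mouse.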
